A study of Mus musculus with 6 samples.

Results

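Mast cell genes were followed in epididymal fat, a visceral depot, of ND-fed and HFD-fed mice. The 10 genes were Cpa3, Cma1, Mcpt4, Tpsb2, Tpsab1, Kit, Fcer1a, Ms4a2, Hdc and Gata2, looked up by Ensembl identifier among the 54532 genes of the count table, and all 10 were found. The animals were untreated male C57BL/6J mice that took either a ND with 4.5% fat or a HFD with 60% fat from 4 weeks of age for 16 weeks, and each diet had 3 samples. The tissue was whole fat, so adipocytes, vessels and immune cells all gave RNA. The labels do not say whether each sample came from a separate mouse, so p-values measure the spread between these samples.

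Mast cells are tissue-resident immune cells that store proteases, histamine and heparin in granules. IgE bound to the high-affinity receptor FcεRI, or other triggers, makes them release these stores, and stem cell factor acting on the receptor KIT keeps them alive. They lie along the vessels of adipose tissue, where they have been studied in connection with obesity. In a bulk sample, fewer cells of a type and less RNA per cell cannot be told apart.

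Count totals lay between 16996896 and 18859320 per library, at which 3 counts, used as the floor, correspond to 0.149 to 0.180 CPM, the counts scaled to each library's total after TMM normalization. The tissue label was checked on 8 adipocyte markers, whose summed level lay between 13790 and 31137 CPM, with the lowest value in the third HFD library. That library also had the highest summed level of 8 macrophage markers, at 8228 CPM against 4736 and 3694 CPM in the other HFD libraries and 1664 to 1772 CPM on ND. The third ND library held epithelial RNA, with a summed level of 8 epithelial markers of 226.7 CPM against 21.0 to 31.0 CPM elsewhere, and 751 counts of Epcam against at most 4. Both libraries are named below wherever a value rests on them.

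The mast cell proteases are known targets of GATA2, the member that encodes a transcription factor, so the stretch before each gene start was read from RefSeq (build GRCm38.p6) for the 8 members listed there, Tpsb2 and Tpsab1 not being among them. A GATA motif, spelled AGATAA with T also allowed as its first letter and G as its last and searched on both strands, was present in the 250 bases upstream of Cpa3, Cma1, Mcpt4, Fcer1a, Ms4a2 and Hdc, and in no listed start of Kit or Gata2. For comparison, 26.5% of all 32851 listed starts had one. A match describes the letters and not a bound site. The stretches of 5 members with higher values on HFD are shown 5′ to 3′, ending at the base before the start, with the GATA motif in capitals (in Cma1, Fcer1a and the first copies of Ms4a2 it is read from the other strand). They lie at chr3:20242182-20242431, chr14:55944676-55944925, chr14:56062311-56062560, chr1:173227230-173227479 and chr19:11623720-11623969 in turn, all on the minus strand.
Cpa3: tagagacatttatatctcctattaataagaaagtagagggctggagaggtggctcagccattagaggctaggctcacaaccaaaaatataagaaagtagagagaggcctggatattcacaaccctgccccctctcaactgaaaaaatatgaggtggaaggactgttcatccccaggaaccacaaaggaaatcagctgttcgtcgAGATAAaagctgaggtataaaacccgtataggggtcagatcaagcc
Cma1: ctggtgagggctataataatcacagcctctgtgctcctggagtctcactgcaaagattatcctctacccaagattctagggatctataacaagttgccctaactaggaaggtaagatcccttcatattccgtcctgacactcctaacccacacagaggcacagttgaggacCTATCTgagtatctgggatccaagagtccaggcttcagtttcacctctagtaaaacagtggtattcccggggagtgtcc
Mcpt4: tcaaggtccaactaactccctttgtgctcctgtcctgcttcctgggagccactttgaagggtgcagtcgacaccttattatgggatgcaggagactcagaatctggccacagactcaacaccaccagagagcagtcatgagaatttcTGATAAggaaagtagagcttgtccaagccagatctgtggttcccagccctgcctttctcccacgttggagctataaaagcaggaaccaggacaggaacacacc
Fcer1a: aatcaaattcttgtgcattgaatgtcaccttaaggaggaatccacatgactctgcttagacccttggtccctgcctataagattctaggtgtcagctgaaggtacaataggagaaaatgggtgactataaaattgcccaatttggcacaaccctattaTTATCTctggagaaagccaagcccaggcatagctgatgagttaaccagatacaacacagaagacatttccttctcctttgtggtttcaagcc
Ms4a2: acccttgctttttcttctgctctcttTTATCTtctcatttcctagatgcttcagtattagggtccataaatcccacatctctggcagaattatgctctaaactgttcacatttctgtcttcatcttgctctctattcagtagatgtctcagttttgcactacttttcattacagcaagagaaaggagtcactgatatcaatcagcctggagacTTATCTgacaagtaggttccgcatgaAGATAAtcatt
The motif lies close to the start in Cpa3, 46 bases before it, and 79, 103 and 92 bases before it in Cma1, Mcpt4 and Fcer1a. Ms4a2 has 3 copies. Apart from such letters the stretches are not alike: aligned end to end, the pair of chymase genes Cma1 and Mcpt4 had 49.3% identical positions.

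HFD was compared with ND across all genes by edgeR's quasi-likelihood test, which kept 15751 genes after a filter on low counts, 9 members among them. At an adjusted p-value under 0.05, 0 of the 9 were higher and 0 were lower on HFD, where 9.85% of all genes tested were called higher and 6.04% lower. At an unadjusted p under 0.05 there were 5 higher (Cma1, Mcpt4, Tpsb2, Tpsab1 and Fcer1a) and 1 lower (Gata2), against 18.7% and 15.3% of all genes. Tpsab1 and Fcer1a reached the filter's level only in the HFD libraries. Their place among the genes tested therefore already favoured higher values on HFD. DESeq2's Wald test called 6 of the 10 members higher at an adjusted p-value under 0.05, which were Cma1, Mcpt4, Tpsb2, Tpsab1, Fcer1a and Ms4a2, and called Gata2 lower, against 10.7% and 8.42% of its genes. The 9 members tested, with the favoured Tpsab1 and Fcer1a, had a median log2 fold change of 1.61, against 0.01 for all genes tested. Whether these members pass the threshold therefore depends on the test.

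The granule proteases Mcpt4, Cma1, Tpsb2 and Cpa3 had the highest mean CPM of the members on HFD. Mcpt4 (ENSMUSG00000061068, chromosome 14 of GRCm38 from 56059629 to 56062313), a chymase, had 236, 69 and 178 counts in the ND mice and 305, 208 and 882 in the HFD mice. The third HFD library was far above the others, and scaled to library size the second HFD library, at 12.5 CPM, lay just under the highest ND value, 12.7 CPM. Its mean went from 8.53 ± 4.37 to 26.6 ± 21.0 CPM (SD, n = 3 each). HFD exceeded ND by 1.64 in log2 units (SE 0.61, 95% interval 0.20 to 3.08, adjusted p = 0.110 by edgeR's quasi-likelihood fit).

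Cma1 (ENSMUSG00000022225, chromosome 14 from 55941451 to 55944675), the other chymase, had 11.3, 4.29 and 8.95 CPM under ND, against 17.1, 10.3 and 47.8 under HFD. As in Mcpt4, the diets overlapped through the second HFD library. HFD minus ND in log2 units came to 1.61 (SE 0.60, adjusted p = 0.109 by edgeR). Few stretches of either gene are shared with other genes, since 5.48% of the 50-base windows of Mcpt4 transcripts are shared with Mcpt9 and Cma2, which had at most 3 counts in any library, and 5.38% of those of Cma1 with the gene model Gm48934.

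Tpsb2 (ENSMUSG00000033825, chromosome 17 from 25366305 to 25369098), a tryptase that forms heparin-bound tetramers, had 9.27, 4.11 and 8.70 CPM under ND, against 16.3, 11.5 and 46.7 under HFD. Every HFD library was above every ND library, which held for 3 of the 9 members tested (Tpsb2, Tpsab1 and Fcer1a) and for 21.9% of all genes tested. The filter kept Tpsab1 and Fcer1a only through their HFD counts, so their order was favoured in advance. For Tpsb2, HFD differed from ND by 1.75 on the log2 scale (SE 0.56, 95% interval 0.42 to 3.07, adjusted p = 0.0757 by edgeR). Its neighbour Tpsab1 (ENSMUSG00000024173, from 25343245 to 25345562) encodes a tryptase that C57BL/6 mice are known to lack as a protein. Tpsab1 had 6, 0 and 9 counts under ND, against 21, 11 and 53 under HFD, few beside the 71 to 812 counts of Tpsb2. edgeR's log2 estimate for the diet was 2.59 (SE 0.92, adjusted p = 0.0962), and the transcripts of the tryptase genes share no 50-base window.

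Cpa3 (ENSMUSG00000001865, chromosome 3 from 20215620 to 20242181), the mast cell carboxypeptidase, differed least between the diets among the proteases. It had 10.2, 7.30 and 10.9 CPM under ND, against 10.7, 8.48 and 34.0 under HFD, so that the first and second HFD libraries lay within the ND range and the third stood above it. Its diet difference was, in log2 units, 0.90 (SE 0.52, 95% interval -0.31 to 2.12, adjusted p = 0.262 by edgeR). Without the third HFD library it was 0.01.

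Together Cpa3, Cma1, Mcpt4 and Tpsb2 had 43.5, 19.7 and 37.4 CPM under ND, against 60.8, 42.8 and 179 under HFD. They took at most 0.0175% of a library. Of the 10 members, 7 had their highest value in the third HFD library (all 5 proteases, Fcer1a and Ms4a2), and so did 32.7% of all genes tested. In the fit without that library the log2 fold changes of Cma1, Mcpt4, Tpsb2, Tpsab1 and Fcer1a lay between 0.72 and 1.75, and none of the 5 passed edgeR's test, with adjusted p-values from 0.146 to 0.313. Without the second HFD library, the lowest of its diet in each of these genes, Cma1, Mcpt4, Tpsb2, Fcer1a and Ms4a2 passed as higher and Gata2 as lower. The filter of that fit kept Fcer1a and Ms4a2 only through their HFD counts, so their direction was favoured in advance. In that fit 14.5% of all 16298 genes tested were called higher and 9.65% lower.

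**Figure D1:**
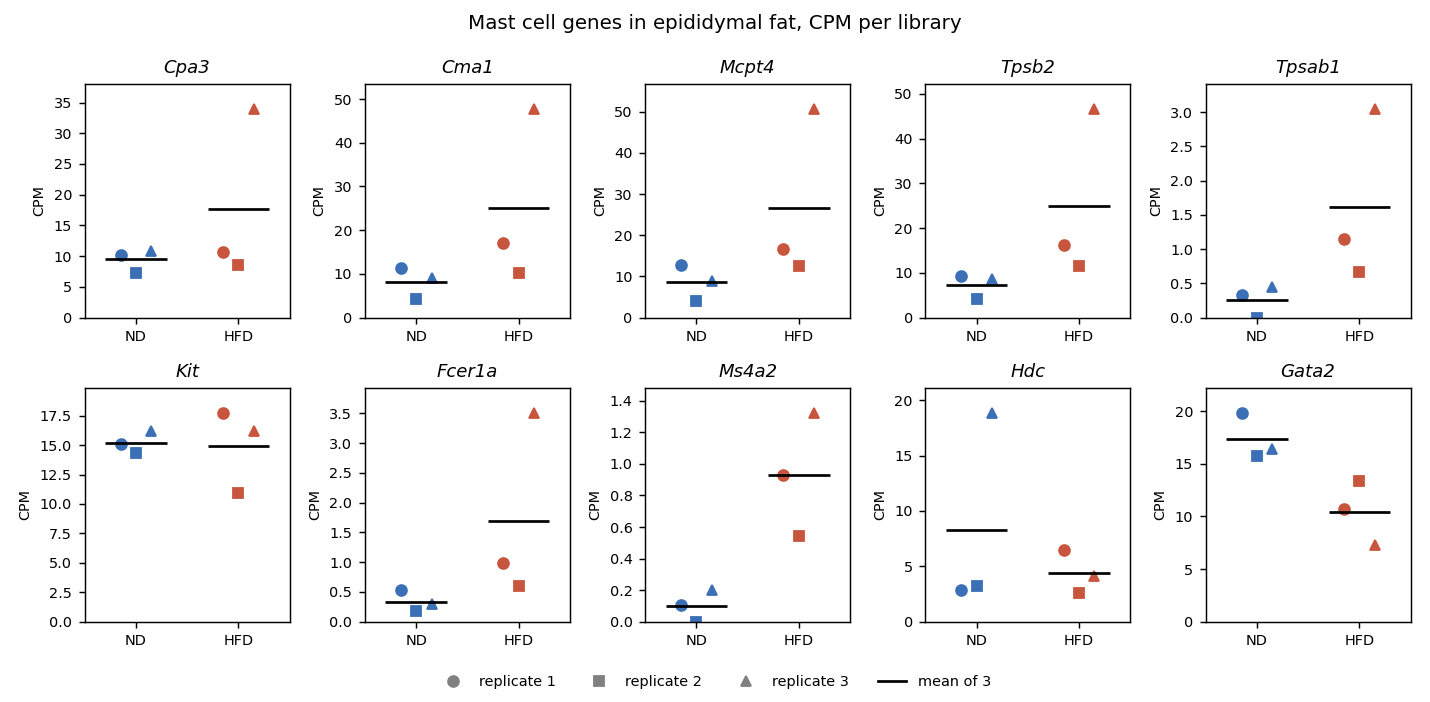
CPM of the 10 mast cell genes in each library (vertical axes, linear from 0, a separate scale for each gene), by diet, with 1 symbol per replicate and a line at the mean of 3. In the proteases, Fcer1a and Ms4a2 the third HFD library (triangle) is the highest, while Hdc is highest in the third ND library and Gata2 is lower in every HFD library than in any ND library.

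Per unit of length, Mcpt4, Cma1, Tpsb2 and Cpa3 led the members in both diets, while the protease Tpsab1, at 0.124 and 0.776 FPKM, was below Gata2 and Kit. In deposited FPKM, the ND means were 7.82 ± 4.02 for Mcpt4, 7.63 ± 3.34 for Cma1, 6.92 ± 2.65 for Tpsb2 and 6.34 ± 1.25 for Cpa3 (SD, n = 3). These genes were measured in the same libraries, and differences between them were not tested. Gata2 followed with 3.26 ± 0.424, Kit with 1.73 ± 0.0952 and Hdc with 1.32 ± 1.44, and Fcer1a, Tpsab1 and Ms4a2 were under 0.35 on ND. On HFD, Mcpt4, Cma1 and Tpsb2 had 24.1 ± 19.0, 23.1 ± 18.4 and 23.1 ± 17.7 FPKM and Cpa3 had 11.7 ± 9.33 (SD, n = 3). Cpa3 was the lowest of these 4 in every library of both diets except the second ND library. There it was the highest of them.

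Every member was also divided by the Cpa3 count of its own library, a ratio that scaling between libraries does not touch. Cpa3 differed least between the diets among the proteases, so higher mean ratios of the others on HFD restate the differences above, and the ratios are given as a description of each library. Mcpt4 had 1.25, 0.548 and 0.813 counts per Cpa3 count on ND and 1.55, 1.48 and 1.49 on HFD. Tpsb2 had 0.910, 0.563 and 0.799 on ND and 1.51, 1.36 and 1.37 on HFD, and Cma1 had 1.11, 0.587 and 0.822 on ND and 1.59, 1.21 and 1.41 on HFD. In each of the 3 genes the HFD ratios were above the ND ratios. Among the HFD libraries those of Mcpt4 lay between 1.48 and 1.55, while Cpa3 itself ran from 8.48 to 34.0 CPM among the HFD libraries.

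Of the 8 other members tested, 5 had ratios to Cpa3 that were higher in every HFD library than in any ND library (Cma1, Mcpt4, Tpsb2, Tpsab1 and Fcer1a), as had 3.79% of all genes tested. The filter kept Tpsab1 and Fcer1a only through their HFD counts. Ms4a2, which was not tested, had ratios of 0.0106, 0 and 0.0183 on ND and 0.0863, 0.0638 and 0.0389 on HFD. The ratios of Kit, Hdc and Gata2 overlapped between the diets and had lower means on HFD. Kit had 1.48, 1.96 and 1.48 on ND and 1.65, 1.29 and 0.475 on HFD. Gata2 had 1.95, 2.15 and 1.51 on ND and 1.0, 1.57 and 0.213 on HFD, and the mean of Hdc went from 0.818 ± 0.794 to 0.344 ± 0.243 (SD, n = 3). In all 3 the third HFD library was the lowest. A high Cpa3 count lowers every ratio in its library, as in the third HFD library, and so bears on the percentage over all genes. With 3 libraries against 3 an exact permutation test cannot go below p = 0.1, and none was run on the ratios.

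**Figure D2:**
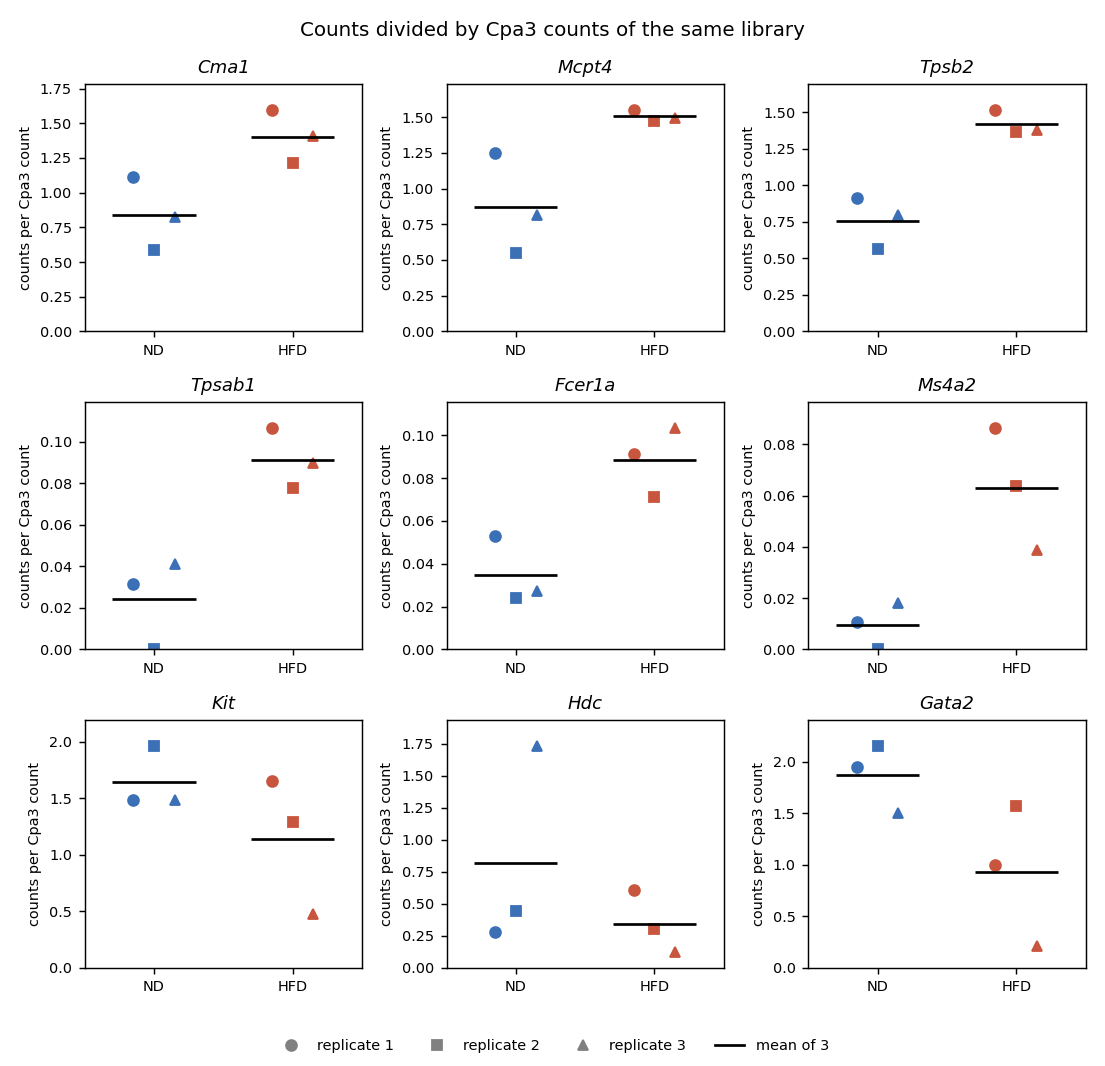
Counts of the 9 mast cell genes other than Cpa3 divided by the Cpa3 counts of the same library (vertical axes, linear from 0, a separate scale for each gene), by diet, with 1 symbol per replicate and a line at the mean of 3. In Cma1, Mcpt4, Tpsb2, Tpsab1, Fcer1a and Ms4a2 every HFD library lies above every ND library, and in Kit, Hdc and Gata2 the diets overlap.

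The surface receptors did not move as one. Fcer1a (ENSMUSG00000005339, chromosome 1 from 173221284 to 173227214), the chain of FcεRI that binds IgE, had 10, 3 and 6 counts under ND, against 18, 10 and 61 under HFD. The HFD values were above the ND values once scaled to library size, at 0.982, 0.602 and 3.51 CPM against 0.539, 0.174 and 0.298 CPM. HFD minus ND in log2 units came to 2.30 (SE 0.78, 95% interval 0.47 to 4.13, adjusted p = 0.0856 by edgeR).

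Ms4a2 (ENSMUSG00000024680, chromosome 19 from 11615523 to 11623719), the β chain of FcεRI that strengthens its signal, had 2, 0 and 4 counts under ND, against 17, 9 and 23 under HFD. All 3 HFD libraries were above the ND libraries, but the gene was removed by the filter on low counts. With no filter, its log2 estimate was 3.07 (SE 0.84, adjusted p = 0.0441 from edgeR's test over 28568 genes, of which 5.03% were called higher), and it was the 1 member called there. Of the 6 fits that left out 1 library, 4 kept the gene, and it passed in the one without the second HFD library. In these fits the filter kept it only through its HFD counts, so a higher value on HFD was favoured in advance.

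Kit (ENSMUSG00000005672, chromosome 5 from 75574916 to 75656722), the receptor for stem cell factor, had 15.1, 14.3 and 16.2 CPM under ND, against 17.7, 10.9 and 16.2 under HFD. The diets overlapped fully, and the third HFD library, so high in protease RNA, lay inside the ND range. On the log2 scale, HFD differed from ND by -0.02 (SE 0.20, adjusted p = 0.944 by edgeR), with a 95% interval from -0.49 to 0.44, and it was 0.16 without the second HFD library. Kit is known in other cells too, such as blood progenitors and melanocytes. The 4 melanocyte markers did not go one way. Dct fell by 2.14 on the log2 scale (adjusted p = 0.00958), Pmel was at -0.71 without passing, Mlana had 1, 0 and 0 counts under ND, against 7, 5 and 6 under HFD, and Tyrp1 had at most 1 count in any library. Summed, a value that rests mostly on Dct, they had 4.78 to 5.74 CPM on the ND side and 1.84 to 2.17 CPM on the HFD side, and their part in the Kit value was not tested.

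Hdc (ENSMUSG00000027360, chromosome 2 from 126593667 to 126619299) encodes histidine decarboxylase, the enzyme that makes histamine. It had 53, 56 and 379 counts under ND, against 119, 43 and 72 under HFD. The high value lay in the third ND library, the one with epithelial RNA, while the other ND libraries were within the HFD range. edgeR's log2 estimate for the diet was -0.92 (SE 0.76, 95% interval -2.71 to 0.87, adjusted p = 0.433), and without the third ND library it was 0.50 (standard error 0.43, adjusted p = 0.478). The part of the epithelial RNA in the Hdc value was not tested.

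Gata2 (ENSMUSG00000015053, chromosome 6 from 88193891 to 88207032) encodes a transcription factor of mast cells, blood progenitors and endothelium. It had 19.8, 15.7 and 16.4 CPM under ND, against 10.7, 13.4 and 7.25 under HFD. It was the 1 member of the 9 tested with every HFD library below every ND library, as were 19.0% of all genes tested, and the library with the most protease RNA had the least Gata2. Its diet difference was, in log2 units, -0.73 (SE 0.24, 95% interval -1.29 to -0.17, adjusted p = 0.0767 by edgeR and 0.0423 by DESeq2). The 8 endothelial markers had a summed level of 1257 to 1546 CPM on ND and of 1355, 1296 and 735 CPM on HFD, with a median log2 fold change of -0.36 and 0 of 8 called by edgeR, while 2 were lower at an unadjusted p under 0.05 and DESeq2 called 1 lower. That was Kdr, a VEGF receptor, which was at -0.83 in log2 units (adjusted p = 0.122 from edgeR's test). Without the third HFD library, the Gata2 difference was -0.54 in log2 units (adjusted p = 0.0990). The part of the endothelium in the Gata2 value was not tested.

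**Figure D3:**
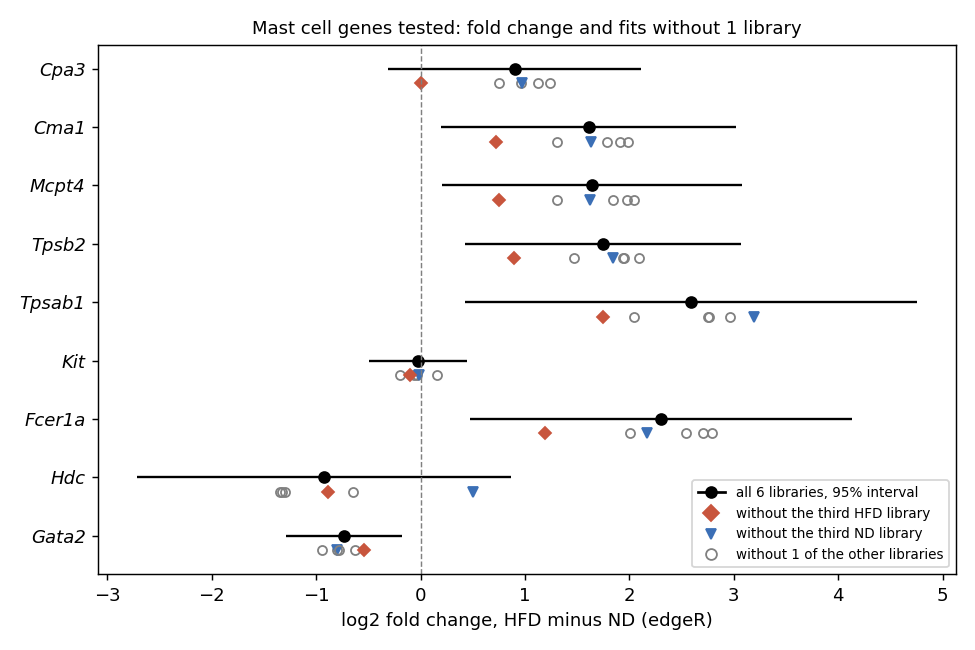
Log2 fold change of HFD against ND from edgeR's test (horizontal axis) for the 9 mast cell genes tested, with 95% intervals, and below each the values of the 6 fits that left out 1 library. The fits without the third HFD library give the lowest values for all 5 proteases and Fcer1a, and the fit without the third ND library moves Hdc from -0.92 to 0.50.

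Beyond the 10 members, 56 genes of mast cell biology were looked up in 6 lists, and 43 of them were tested. Of these, 18 were higher and 1 was lower on HFD at an adjusted p-value under 0.05. Without the first HFD, the first ND or the second ND library 4 or 5 were higher and 0 lower, in fits that called 337 to 380 genes higher over all. In the list of other granule proteases and of the proteoglycan core that holds them, 6 of 8 genes were not tested. Mcpt1, Mcpt2, Mcpt9 and Cma2, granule proteases found above all in mucosal mast cells or of unclear role, had at most 3 counts in any library. Srgn, which encodes the serglycin core of granules in many blood cells, rose from 61.2 ± 2.06 to 93.5 ± 15.1 CPM (SD, n = 3 each), or 0.61 in log2 units (adjusted p = 0.0277 from edgeR's test). Without any single ND library or the first HFD library Srgn did not pass (adjusted p = 0.0745 to 0.109 by edgeR). Ctsg, which encodes cathepsin G of granules, had 0, 0 and 2 counts under ND, against 7, 0 and 34 under HFD. The filter removed it, and it did not pass with no filter (adjusted p = 0.199 by edgeR) or with DESeq2 (adjusted p = 0.0931).

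In the list for storage, breakdown and sensing of amines, 1 of 6 tested genes was lower on HFD. Maob, a monoamine oxidase of the mitochondria that breaks down amines, fell from 91.0 ± 10.3 to 29.0 ± 14.9 CPM (SD, n = 3 each), or -1.65 in log2 units (adjusted p = 0.0246 from edgeR's test). Hnmt, which methylates histamine, had 41.3, 41.3 and 34.3 CPM under ND, against 25.7, 31.3 and 20.8 under HFD (log2 fold change -0.59, adjusted p = 0.0573). In Maob and Hnmt the second HFD library was the highest of its diet and the third the lowest, the reverse of the proteases. The summed adipocyte markers had that order too, at 20823, 31137 and 13790 CPM under HFD. Their sum overlapped with ND (22569 to 28449 CPM), while Maob and Hnmt did not overlap between the diets. The part of adipocytes in the Maob and Hnmt values was not tested. Slc18a2, the carrier that loads histamine into granules, had 2.16, 1.22 and 1.44 CPM under ND, against 1.69, 2.71 and 4.14 under HFD (log2 fold change 0.82, adjusted p = 0.215, and 0.43 without the third HFD library). Tph1, the enzyme for serotonin synthesis in mouse mast cells, had 2, 0 and 1 counts under ND, against 12, 5 and 41 under HFD. The filter removed it, and it was higher with no filter (4.19 in log2 units, adjusted p = 0.0266 by edgeR) and with DESeq2 (4.35, adjusted p = 0.00809). Hnmt, Slc18a2, Tph1 and Ctsg were named after their values were seen, as were Kitl, Mrgprb1, Mrgprb2, Ear2 and Ccr3 below.

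The list for IgE receptor signalling had 11 of 14 genes higher, against 9.85% of all genes tested, with a median log2 fold change of 1.57. Fcer1g, the γ chain that FcεRI shares with Fc receptors of macrophages, had 47.4, 46.2 and 46.7 CPM under ND, against 164, 101 and 302 under HFD, or 2.01 in log2 units (adjusted p = 0.0158 from edgeR's test). Per unit of length Fcer1g had 53.9 to 347 FPKM over the 6 libraries, against 0.178 to 3.53 FPKM for Fcer1a. Lat2, an adaptor, rose by a log2 fold change of 3.88 and Syk, the kinase at the γ chain, by 2.55 (adjusted p = 0.00832 and 0.00958). Btk, Vav1, Ptpn6, Inpp5d, Plcg2, Lcp2, Lyn and Fyn rose as well, by 0.57 to 2.22. The call of Fyn (0.57, adjusted p = 0.0438) was lost with no filter (adjusted p = 0.0515), with the size factors of DESeq2 (0.0502), on FPKM (0.0587 to 0.112) and in every fit that left out 1 library except the one without the second HFD library. Fcer1g and Lyn were also lost without any single ND library or the first HFD library (adjusted p = 0.0560 to 0.0866 by edgeR). On unfiltered FPKM they did not pass by limma (adjusted p = 0.0686 and 0.0787). Plcg1, Gab2 and Lat did not pass.

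These signalling genes are known to be used by macrophages, and macrophage markers moved with them. Of 8 macrophage markers 7 were higher, against 9.85% of all genes tested, with a median log2 fold change of 1.67. Adgre1, which encodes F4/80, had 48.5, 41.8 and 47.0 CPM under ND, against 318, 211 and 505 under HFD. The order of the HFD libraries was the same as in Fcer1g and in the proteases, with the third highest and the second lowest. The part of macrophages in the list's counts was not tested.

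Among growth factors and receptors that act on mast cells, 3 of 10 were higher, against 9.85% of all genes tested. Il3ra and Csf2rb, chains of the IL-3 receptor, had log2 fold changes of 1.18 and 1.01, and Csf2rb2, the IL-3-specific β chain, had 2.16. Their adjusted p-values were 0.0102, 0.0128 and 0.00742 in turn by edgeR's test. In all 3 the third HFD library was the highest and the second the lowest of its diet, as in Adgre1 and the proteases. The part of macrophages in these values was not tested. Kitl, which encodes stem cell factor, the ligand of KIT, had 80.3, 70.7 and 91.8 CPM under ND, against 120, 104 and 114 under HFD. All HFD libraries were above the ND libraries, and the difference was 0.48 in log2 units (SE 0.13, adjusted p = 0.0527 by edgeR and 0.0232 by DESeq2).

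Of 8 other surface and lineage genes 5 were tested and 1 was higher. Mitf, a transcription factor of mast cells, melanocytes and osteoclasts, rose by a log2 fold change of 1.57 (adjusted p = 0.0130 from edgeR's test). Its HFD libraries had the order of Adgre1 as well, and the part of macrophages in its value was not tested. Mrgprb2, the receptor through which mouse mast cells answer to charged peptides and drugs, had 5, 2 and 8 counts under ND, against 12, 11 and 36 under HFD (log2 fold change 2.06, adjusted p = 0.0761). The filter kept Mrgprb2 only through its HFD counts. Mrgprb1, a relative of it, had 15, 12 and 30 counts under ND, against 39, 13 and 88 under HFD, with the diets overlapping (log2 fold change 1.40, adjusted p = 0.195). In both, as in the proteases, the third HFD library was the highest. Without it the values were 1.28 for Mrgprb2 and 0.52 for Mrgprb1, and without the second HFD library Mrgprb1 passed (1.84, adjusted p = 0.0458). The list of eicosanoid enzymes had 2 of 6 genes higher, against 9.85% of all genes tested. Hpgds, which makes prostaglandin D in mast cells and is also known in macrophages, had 5.72, 6.66 and 8.01 CPM under ND, against 94.6, 41.7 and 173 under HFD, or 3.92 in log2 units (adjusted p = 0.00754). Alox5ap, the partner of 5-lipoxygenase in leukotriene synthesis, rose by 1.78 (adjusted p = 0.0210). Hpgds and Alox5ap also had the HFD order of Adgre1, and the part of macrophages in their values was not tested.

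Markers of other granulocytes were looked up too. Basophils also carry FcεRI and Hdc. The basophil protease Mcpt8 had at most 1 count in any library, Prss34 had 7, 7 and 9 counts under ND, against 8, 10 and 25 under HFD, and Il4, the remaining basophil marker, did not pass. Of 8 eosinophil markers 4 were tested and 2 were higher. Siglecf had 2, 3 and 6 counts under ND, against 24, 16 and 32 under HFD, and Ccr3 had 6, 3 and 8 counts under ND, against 30, 18 and 52 under HFD (log2 fold changes 2.77 and 2.63, adjusted p = 0.0154 and 0.0208 from edgeR's test). Neither passed without the first HFD, the first ND or the second ND library, and the filter kept both only through their HFD counts. The eosinophil granule gene Epx had at most 1 count in any library and Prg2 had 6 to 22. Ear2, a ribonuclease gene also known in macrophages, stood far above them at 36.0, 20.9 and 29.8 CPM under ND, against 38.3, 38.1 and 28.9 under HFD, with the diets overlapping (log2 fold change 0.28, adjusted p = 0.407). None of 8 lymphocyte markers and none of 8 adipocyte progenitor markers was called, with median log2 fold changes of 0.31 and 0.03 and with 0 of each at an unadjusted p under 0.05. DESeq2 called 0 in both lists.

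**Figure D4:**
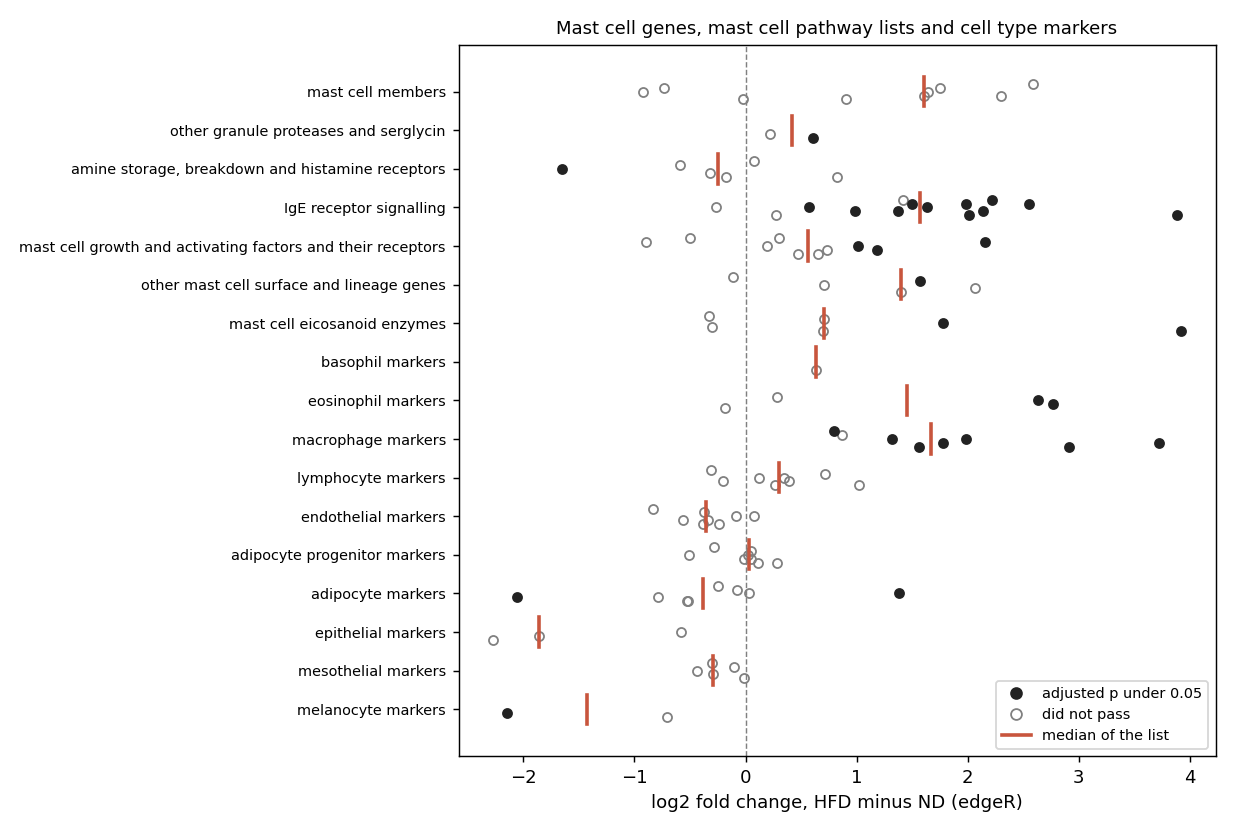
Log2 fold change of HFD against ND from edgeR's test (horizontal axis) for each tested gene of the mast cell members, the 6 mast cell pathway lists and the cell type marker lists (rows), with filled points at an adjusted p under 0.05 and a bar at the list's median. The members hold 0 filled points at a median of 1.61, which includes Tpsab1 and Fcer1a, kept by the filter only through their HFD counts. IgE receptor signalling has 11 of 14 filled points and macrophage markers have 7 of 8, all higher, against 9.85% of all genes tested.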

How the data were processed

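RNA-Seq of epididymal fat gave 6 libraries, 3 for each diet, grouped by the sample labels. The authors deposited raw counts per gene and FPKM values for the same libraries. The submitters' processing notes name CASAVA 1.8, fastp, HISAT2 2.0.5, featureCounts 1.5.0-p3 and DESeq2 1.20.0 and list a human build, whereas the paper's methods name GRCm38 with TopHat and Cufflinks. The identifiers are those of mouse genes, and 54409 of 54532 were found in the symbol table. The NEBNext Ultra kit named in the labels marks no strand, and no exon of another gene overlaps a member in GENCODE M21.

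Counts were tested with edgeR 4.0.16 in R 4.3.3 (TMM, filterByExpr, glmQLFit with robust=TRUE, a diet term alone, Benjamini-Hochberg adjustment over all genes tested). Intervals come from the F statistic. FPKM served to compare genes. Genes were named by rule: all members, each pathway gene past the threshold or else up to 3 per list, and per marker list the first 3 or the one of largest change. The exceptions are the genes said above to have been named after their values were seen. Alternatives were DESeq2 1.42.0, limma 3.58.1 on counts (voom) and on log2(FPKM + 1) or log2(FPKM + 0.1), other scalings and filters, the replicate number as a block and each library left out. The edgeR, DESeq2 and limma fits were tested on simulated data. The members and lists were chosen with earlier results of these data known.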

Additional observations from a re-analysis of the deposited data

How the results depend on the processing

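The counts of members called, 0 higher and 0 lower, were 6 and 1 with DESeq2's Wald test, 1 and 0 with no filter (Ms4a2), 1 and 0 with the replicate number as a block (Tpsb2, adjusted p = 0.0470), and 0 to 5 and 0 to 1 with 1 library left out. The numbers do not pair the samples: ND and HFD libraries of like number deviated from their diet's mean with correlations of -0.0858, -0.0556 and -0.00532, no library was most like its own number, and with the block 1183 genes were higher and 703 lower over all genes. Of the pathway genes, 18 higher and 1 lower, 6 and 0 passed on unfiltered FPKM, 4 to 25 and 0 to 2 with 1 library left out, and the lower count was 2 with DESeq2, with the block and on log2(FPKM + 1) and log2(FPKM + 0.1), and 0 with no filter. Over all genes, 1552 higher and 952 lower, 394 and 255 passed on unfiltered FPKM, 1596 were lower with DESeq2, and 337 to 2368 and 94 to 1572 passed with 1 library left out. Among 39 named genes 2 changed sign in some fit: Kit went from -0.20 to 0.16 and Hdc from -1.35 to 0.50 with 1 library left out. Fyn was not called with the block (adjusted p = 0.102). The cause was not tested. At this depth Ms4a2, Tpsab1 and Fcer1a had 0 to 10 counts on ND, which limits their fold changes.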
